A study of Drosophila melanogaster with 18 samples.

Results

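The Dpr and DIP genes of *Drosophila* encode cell-surface proteins of the immunoglobulin superfamily. Members were taken by name, as every gene called dpr or DIP in the head RNA-seq table, without regard to how it moved. This gave 31 of 15406 genes, of which 21 were Dpr genes (dpr1 to dpr21) and 10 were DIP genes. DIP-kappa, listed in the table as CG31814, and DIP-lambda carried these names only in the current annotation. DIP-alpha was not analysed here. The libraries came from heads of miR-210Δ flies and of wDah control flies, both 1 h after eclosion, with 3 libraries per genotype. The miR-210Δ flies carried a deletion of the miR-210 gene on the X chromosome, made with CRISPR/Cas9 by a pair of guide RNAs on either side of the gene. Both groups were of the wDah strain (white Dahomey), a wild-type stock with the endosymbiont Wolbachia. The study's notes say in general that transgenic flies were crossed back into this stock or a red-eyed one, and do not say so for the deletion line by itself. The growth notes give once-mated females for the study as a whole, unless stated otherwise. The methods do not give the sex or mating status of the 1 h flies themselves, so neither is established for these libraries. The sources used here do not say how many deletion lines or how many flies went into a sample, nor whether the 3 samples of a group were collected separately, so that the p-values below speak only for the scatter among these samples, part or all of which may be technical. The head libraries were 6 of the 18 in the series, and the small RNA libraries of other tissues were not used here.

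Dpr stands for defective proboscis extension response, after dpr1, which was first found through its role in the aversive response to salt. The DIPs are the Dpr-interacting proteins. A Dpr on one cell binds a particular DIP on another, and since neurons express different combinations of them, the network is best known as a set of matching labels in the visual system and at the neuromuscular junction, where it acts in synapse choice, axon branching and cell survival. In the retina, dpr11 is made by a subset of the R7 photoreceptors, those with the ultraviolet opsin Rh4, while its partner DIP-gamma is made by the amacrine neurons on which these cells synapse. A miRNA such as miR-210 pairs through its seed (bases 2 to 8) with the 3′ UTR of a transcript and lowers its level or translation.

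Because miR-210 is what the miR-210Δ flies lack, the mature arms and the places in Dpr and DIP transcripts that can pair with their seeds are shown first. The arms are printed as RefSeq gives them on its release 6 assembly of the fly genome, with the seed in capitals. The hairpin lies at X:18128219-18128318 on the plus strand.
miR-210-3p: cUUGUGCGugugacagcggcuau
miR-210-5p: aGCUGCUGgccacugcacaagau

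The word that pairs with the seed of miR-210-3p is CGCACAA, and the strand of the transcript was searched. Of the 31 members, 2 held it in an annotated 3′ UTR (6.45%), against 319 of the 9011 tested genes with an annotated 3′ UTR (3.54%). These were DIP-beta, in 2 of its 5 transcripts (X:21440837-21440843, minus strand), and DIP-delta, in 1 of its 3 transcripts (3L:5440743-5440749, plus strand). The word ACGCACA, which pairs with bases 3 to 9 and overlaps the first by 6 bases, occurred in the 3′ UTR of dpr8 (X:14462217-14462223, plus strand, 2 of 2 transcripts) within a run of alternating bases, and in 4.94% of all tested genes. The study lists a mutated version of its Fasn1 3′ UTR construct, and the bases replaced in it are this same word, ACGCACA. In the study's luciferase assay with the Fasn1 3′ UTR, no lowering of the signal by miR-210 was detected against a scrambled control. The study itself names UGCGUGU as the functional seed. In the annotated arm these are bases 5 to 11, whose match is ACACGCA, and this word, which shares its last 5 bases with the start of the preceding one, was searched after the data had been seen. It occurred in the 3′ UTR of 6 members, DIP-zeta, dpr1, dpr3, dpr8, dpr11 and dpr12, which is 19.4% of members against 5.65% of all tested genes. The annotated 3′ UTRs had a median of 1063 nt in members and 323 nt in all tested genes. A search for CAGCAGC, the match to the seed of miR-210-5p, was added at that stage too. It found dpr11 (3R:6529652-6529658, minus strand, 1 of 2 transcripts), dpr4, dpr10 and DIP-eta, which is 12.9% of members against 9.77% of all tested genes. The sites are shown 5′ to 3′ on the transcript strand with 10 bases on either side and the matched word in capitals, as the sites to which the levels of these genes are compared further on.
DIP-beta, 3p seed: aaaagagcagCGCACAAaaactaccag
DIP-delta, 3p seed: tccttggcccCGCACAAtggcacacag
dpr8, 3p bases 3 to 9: cactcaccacACGCACAcacacacaca
dpr11, 3p bases 5 to 11: ctttttaattACACGCActcccccgat
dpr11, 5p seed: acccaccccaCAGCAGCgcccaaccct

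Raw read counts for each gene, as deposited by the authors, were used. They came to 17992976 to 20486283 counts per library in miR-210Δ and 18931638 to 21315973 in wDah heads. Members took 0.138% to 0.141% of all counts in miR-210Δ and 0.120% to 0.135% in wDah libraries, and each tested member had 145 to 3903 counts in a library. Markers of the head were well above the filter, with 8 of 8 neuron markers and 15 of 15 photoreceptor markers tested. The photoreceptor markers were all lower in miR-210Δ (15 of 15, median log2 fold change −0.80), among them the opsins Rh2 (−3.69), Rh4 (−2.19) and Rh3 (−1.79) and the light-activated channel gene trpl (−1.81). In whole heads, fewer cells of a type and less RNA per cell cannot be told apart. The control library wDah replicate 3 stood apart from the others: the chi-square statistic per degree of freedom between replicates was 2.48 to 4.20 among miR-210Δ libraries, 3.96 between wDah replicates 1 and 2, and 22.5 and 19.4 between replicate 3 and each of them. The counts of members and the values of the members named for their changes are therefore also given without it where it moved them. The deletion itself was not checked here, since poly(A) libraries do not hold mature miRNAs. The study reports loss of miR-210 in heads of these mutants by qRT-PCR.

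To compare genes with each other, counts were scaled to the library and to the length of the annotated exons (RPKM). On this per-length scale the members spanned a 13.3-fold range, with a median of 10.3 RPKM beside 11.9 RPKM for all 9470 tested genes, and 11 of the 30 tested members lay above that median. The most abundant Dpr genes per length were dpr7, dpr12 and dpr21. The annotated exons of dpr7 and dpr21 are short, at 1515 and 993 nt, beside a median of 3160 nt in members. Before scaling to length, dpr9 (114 CPM in miR-210Δ and 104 in wDah) lay above dpr7 (75.6 and 71.9) and dpr21 (25.0 and 25.8). The level of dpr7, which lies on the small chromosome 4, averaged 49.9 ± 0.778 RPKM in miR-210Δ and 47.4 ± 2.47 RPKM in wDah heads (SD, n = 3 each, as for all levels below). The level of dpr12, which acts with DIP-delta in the mushroom body, averaged 39.2 ± 0.402 RPKM in miR-210Δ and 39.5 ± 1.38 RPKM in wDah heads, and dpr21 averaged 25.2 ± 1.78 RPKM in miR-210Δ and 26.0 ± 1.35 RPKM in wDah heads. The first of these stood above the second by more than the spread of either, and the second above the third.

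The least abundant Dpr genes were dpr16 (4.16 ± 0.429 RPKM in miR-210Δ and 3.74 ± 0.603 in wDah), dpr2 (4.56 ± 0.277 in miR-210Δ and 4.37 ± 0.547 in wDah) and dpr6 (5.14 ± 0.252 in miR-210Δ and 5.09 ± 0.204 in wDah). The levels of dpr16 and dpr2 did not differ beyond their spread. Among the DIP genes, DIP-epsilon was highest by a wide margin, at 43.3 ± 0.822 RPKM in miR-210Δ and 36.1 ± 1.34 in wDah heads. DIP-gamma (10.5 ± 0.497 RPKM in miR-210Δ and 10.3 ± 0.307 in wDah) and DIP-theta (10.2 ± 0.413 in miR-210Δ and 9.82 ± 0.387 in wDah) came next and did not differ from each other beyond their spread. DIP-lambda was the lowest of those tested (3.68 ± 0.425 RPKM in miR-210Δ and 3.63 ± 0.447 in wDah), and DIP-beta and DIP-delta lay between 5.78 and 6.15 RPKM in both genotypes. DIP-iota was the only member removed by the count filter. It had 0, 1 and 6 counts in the miR-210Δ libraries and 6, 2 and 5 in the wDah libraries, so that a difference between genotypes could not be judged at this depth.

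**Figure D1:**
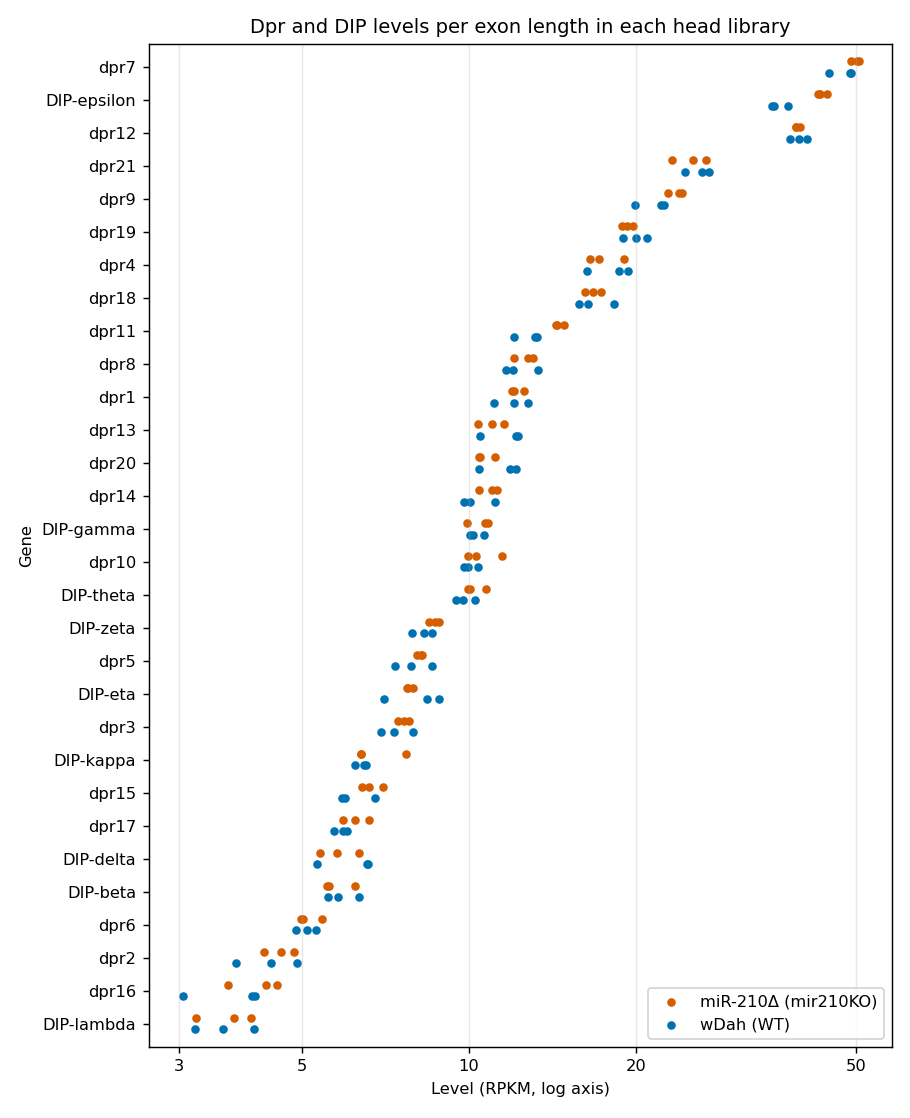
Level of each tested Dpr and DIP gene per length, in RPKM on a log axis, with 1 point per library and the genotypes marked by colour. The genotypes lie on top of each other for most genes, dpr7 is the highest and DIP-lambda the lowest, and DIP-epsilon stands above the other DIP genes.

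The question of the comparison was whether the levels of these genes differed between miR-210Δ and wDah heads. Nearly all of them lay close together. With edgeR's quasi-likelihood test, adjusted by Benjamini-Hochberg over all 9470 tested genes, 2 of 30 members passed an adjusted p of 0.05, and both, DIP-epsilon and dpr11, were higher in miR-210Δ. No member passed in the other direction. Of all tested genes 10.1% passed, with 3.97% of all tested genes higher and 6.12% lower. The 6.67% of members called lay below the share for either direction and above the share called higher, and 2 calls are too few to set against either. Without adjustment, 3 members (10.0%) had a p under 0.05, against 23.2% of all tested genes. Without wDah replicate 3 these were 5 members (16.7%), against 24.7% of all tested genes, and 3 of the 5 (dpr13, dpr20 and DIP-delta) were lower in miR-210Δ. With DESeq2, which called 7.33% of the genes it tested, DIP-epsilon was the only member called.

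The changes in the members were small and measured with fair precision. Their median log2 fold change was 0.04 (range −0.11 to 0.26), against 0.0012 over all tested genes. The median size of the change without its sign was 0.06 in members and 0.09 in all genes, with median standard errors of 0.061 and 0.070. A change of under 0.1 in log2 was found in 24 of 30 members (80.0%) and in 53.8% of all tested genes. The 95% interval of the difference lay within 1.25-fold either way for 28 of 30 members (93.3%), the exceptions being DIP-epsilon and dpr16, beside 60.3% of all tested genes, a share that includes genes with far fewer counts. Within 1.5-fold, it held for all 30 tested members and for 81.9% of all tested genes. The 28 members that were not called had adjusted p of 0.133 to 0.954.

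**Figure D2:**
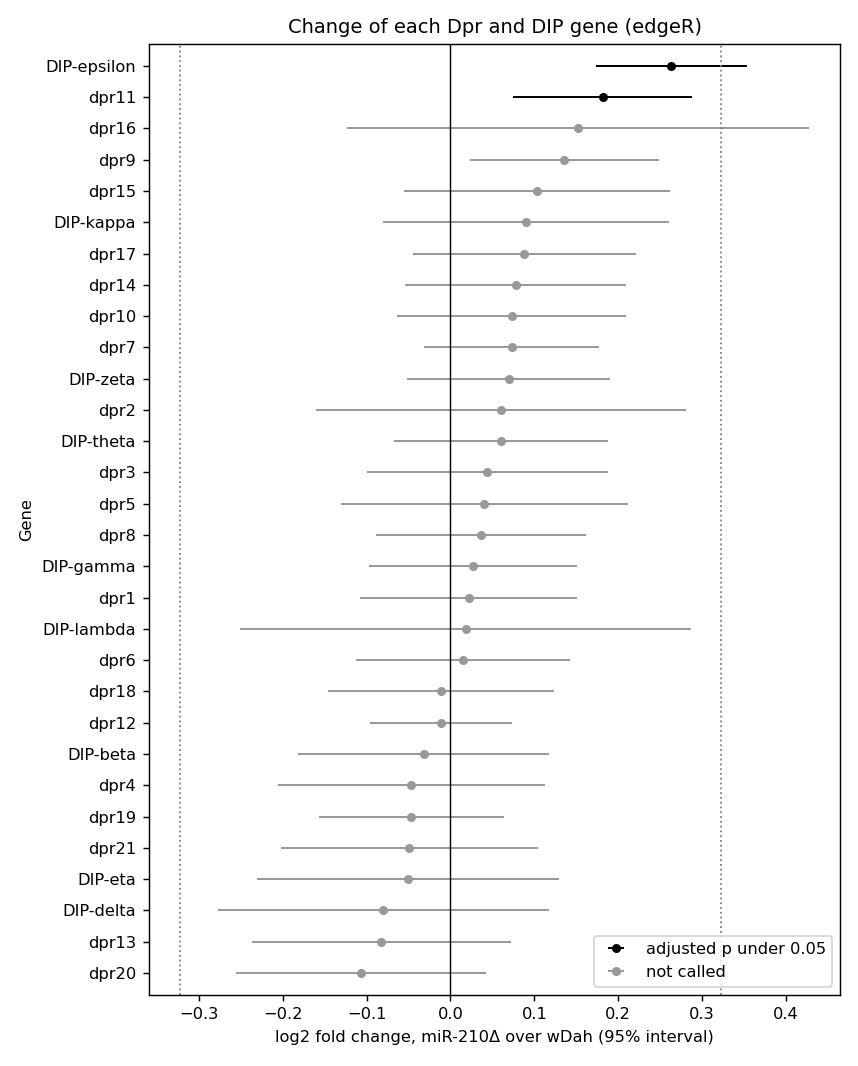
Log2 fold change of each tested Dpr and DIP gene, miR-210Δ over wDah, with its 95% interval and dotted lines at a fold of 1.25 either way. Of the 30 intervals, those of DIP-epsilon, dpr11 and dpr9 lie above 0, and DIP-epsilon and dpr11 pass after adjustment over all genes.

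DIP-epsilon showed the largest and firmest difference among the members. Its level was 139, 136 and 134 CPM (counts scaled to a library of fixed size) in the miR-210Δ libraries, against 119, 111 and 112 CPM in the wDah libraries. Every miR-210Δ library was thus above every wDah library. The log2 fold change was 0.26 ± 0.041 (standard error, 95% interval 0.17 to 0.35), that is 1.20-fold higher, with an adjusted p of 0.00157 by edgeR. It was called in each of the 13 alternative settings in which the fit was repeated, with log2 fold changes of 0.25 to 0.30 and adjusted p of 3.48e-05 to 0.0164, and without wDah replicate 3 the adjusted p was 0.00065. By rank of p-value it stood at place 318 of all genes tested.

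DIP-epsilon lies on the minus strand at 2L:6377771-6411326, in coordinates of the release 6 annotation, and has 1 annotated transcript. Within this span, on the opposite strand and sharing none of its exons, lies Nepl5 (2L:6381266-6383419), a gene of the neprilysin-like family. Nepl5 also rose, with 127, 134 and 131 CPM in miR-210Δ against 109, 110 and 105 CPM in wDah heads (log2 fold change 0.28 ± 0.039, adjusted p 9.76e-04 by edgeR). Another called gene, retm, lies 37.1 kb away at 2L:6448464-6455929 and had 438, 431 and 426 CPM in miR-210Δ against 367, 348 and 347 CPM in wDah (0.28 ± 0.038, adjusted p 6.25e-04). These were the 2 genes called of 14 tested among the 20 of the count table within 50 kb, and the other 12 lay between −0.08 and 0.13. The sources used here do not state whether counting used strand, although the library kit was a stranded one, and the part of the genes around DIP-epsilon in its difference was not tested.

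None of the genes listed here as partners of DIP-epsilon passed the test. In the binding groups used here, taken from textbook knowledge, DIP-epsilon and DIP-zeta share the partners dpr14, dpr19 and dpr20. DIP-zeta had 30.9, 31.5 and 30.2 CPM in miR-210Δ against 29.5, 30.6 and 28.2 CPM in wDah (log2 fold change 0.07, adjusted p 0.509). For dpr14 the log2 fold change was 0.08 and for dpr19 −0.05. The largest decrease among the members was that of dpr20, with 28.4, 28.4 and 30.3 CPM in miR-210Δ against 32.3, 33.1 and 28.4 CPM in wDah. The groups overlapped through wDah replicate 3, and the log2 fold change of −0.11 ± 0.067 (95% interval −0.26 to 0.04) did not pass the test, with an adjusted p of 0.393 by edgeR. Without that library it was −0.17 (adjusted p 0.0863). The summed per-length level of both DIP genes was 52.0 ± 0.901 RPKM in miR-210Δ and 44.4 ± 1.36 RPKM in wDah heads, and that of the 3 Dpr partners was 40.9 ± 0.512 RPKM in miR-210Δ and 41.8 ± 2.43 RPKM in wDah.

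The second called member was dpr11. Its level was 66.9, 67.2 and 69.2 CPM in miR-210Δ, against 61.7, 61.2 and 56.2 CPM in wDah heads. The groups did not overlap, and the log2 fold change was 0.18 ± 0.048 (95% interval 0.07 to 0.29), a 1.13-fold difference, with an adjusted p of 0.0369 by edgeR. This call was narrow. It held in 5 of the 13 alternative settings and was lost in the other 8, among them DESeq2 (adjusted p 0.117) and the fit without wDah replicate 3 (log2 fold change 0.14, adjusted p 0.0676), while the direction held in each. In the retina this gene is known from the Rh4 photoreceptors, and Rh4 itself had 88.9, 94.9 and 94.6 CPM in miR-210Δ against 432, 438 and 402 CPM in wDah heads. The opsin's log2 fold change was −2.19, and the dpr11 transcript was not lower in any miR-210Δ library than in any wDah library. Counts of whole heads do not show which cells held the dpr11 transcript, so its level in the Rh4 photoreceptors is not known. The gene lies at 3R:6529169-6593330 on the minus strand, and of its 2 tested neighbours within 50 kb, CG15186 was called lower (−0.29, adjusted p 0.0325).

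The partner of dpr11, DIP-gamma, did not pass the test. DIP-gamma had 30.8, 33.2 and 33.7 CPM in miR-210Δ against 33.0, 31.2 and 31.6 CPM in wDah, with overlapping groups and a log2 fold change of 0.03 (95% interval −0.10 to 0.15, adjusted p 0.831 by edgeR). The other Dpr proteins that bind DIP-gamma are dpr15, dpr16 and dpr17, with log2 fold changes of 0.10, 0.15 and 0.09, none of them past the test. The value for dpr16 was the third highest of the members and also the least precise of the 30, with 12.6, 13.1 and 10.7 CPM in miR-210Δ against 8.89, 12.0 and 11.9 CPM in wDah (95% interval −0.12 to 0.43, adjusted p 0.527). It was 0.03 without wDah replicate 1, the lowest of the 6 libraries for this gene. Summed per length, these 4 Dpr genes reached 31.6 ± 0.566 RPKM in miR-210Δ and 28.7 ± 0.934 RPKM in wDah heads, beside the level of DIP-gamma given above.

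**Figure D3:**
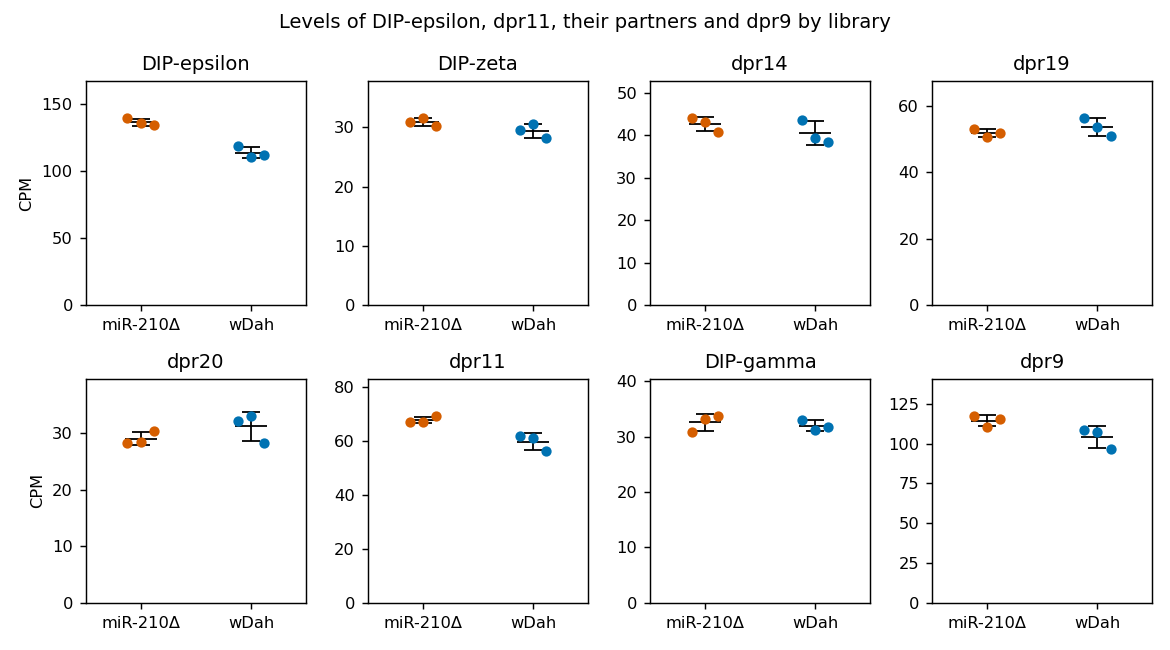
Level in each library, in CPM, of DIP-epsilon, dpr11, their binding partners and dpr9, with 1 point per library, miR-210Δ left of wDah, and lines for the mean with its SD. The genotypes are separate for DIP-epsilon and dpr11, and overlap for their partners DIP-zeta, dpr14, dpr19, dpr20 and DIP-gamma.

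In the group around DIP-beta, a DIP of lamina neurons, the highest value belonged to dpr9. It had 117, 110 and 115 CPM in miR-210Δ against 109, 107 and 96.4 CPM in wDah heads. The groups did not overlap, but the log2 fold change of 0.14 ± 0.051 (95% interval 0.02 to 0.25) had an adjusted p of 0.133 by edgeR and passed under none of the alternatives. Without wDah replicate 3 it was 0.08. The log2 fold changes of the other partners, dpr8 and dpr21, were 0.04 and −0.05. Likewise, dpr7 had 74.3, 76.0 and 76.6 CPM in miR-210Δ against 73.9, 74.1 and 67.5 CPM in wDah, apart by a small margin, with a log2 fold change of 0.07 (adjusted p 0.407), and of 0.03 without wDah replicate 3. With DIP-epsilon and dpr11, these were the 4 of 30 members in which every miR-210Δ library lay above every wDah library, against 13.2% of all tested genes. In no member did every miR-210Δ library lie below every wDah library, which held for 15.0% of all tested genes, or 28.3% in either direction. This rested on wDah replicate 3. Without it, every miR-210Δ library lay below both wDah libraries in 5 members, dpr13, dpr19, dpr20, DIP-delta and DIP-eta (16.7%, against 20.2% of all tested genes), and above both in 5, the 4 above and dpr3 (16.7%, against 20.5%).

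The remaining binding groups showed smaller values. The transcript of dpr12 had 186, 183 and 183 CPM in miR-210Δ against 192, 186 and 179 CPM in wDah, and its log2 fold change of −0.01 ± 0.038 had the narrowest interval of those quoted (−0.10 to 0.07). For its partner DIP-delta the values were 25.9, 27.8 and 30.4 CPM in miR-210Δ and 31.6, 31.5 and 25.6 CPM in wDah, a log2 fold change of −0.08 that did not pass (95% interval −0.28 to 0.12, adjusted p 0.659, and −0.18 with an adjusted p of 0.128 without wDah replicate 3). Genes dpr6 and dpr10, which bind DIP-alpha in medulla and motor neurons, had log2 fold changes of 0.01 and 0.07 and summed to 15.7 ± 0.784 RPKM in miR-210Δ and 15.1 ± 0.476 RPKM in wDah. The DIP-eta, DIP-theta and DIP-iota group summed to 18.2 ± 0.476 RPKM in miR-210Δ and 18.1 ± 1.31 RPKM in wDah. Its partners dpr1 to dpr5 summed to 50.1 ± 1.62 RPKM in miR-210Δ and 49.8 ± 3.08 RPKM in wDah. The log2 fold changes of dpr1 to dpr5 lay between −0.05 and 0.06. Of the genes without a partner in this list, dpr13 was among the lowest, with 34.1, 36.2 and 38.0 CPM in miR-210Δ against 40.3, 39.9 and 34.3 CPM in wDah (−0.08, adjusted p 0.541), and without wDah replicate 3 it was at −0.16 (adjusted p 0.11).

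Neither of the members with a 3′ UTR match to the seed of miR-210-3p passed the test. DIP-beta had 29.5, 29.3 and 32.9 CPM in miR-210Δ against 30.7, 33.4 and 29.5 CPM in wDah heads. The groups overlapped, with a log2 fold change of −0.03 (95% interval −0.18 to 0.12, adjusted p 0.833 by edgeR), and DIP-delta, given above, was −0.08. The gene with the match to bases 3 to 9, dpr8, had 63.4, 59.9 and 64.8 CPM in miR-210Δ against 66.0, 59.5 and 57.9 CPM in wDah (0.04, adjusted p 0.762). In the coding sequence the seed match occurred in DIP-beta, DIP-zeta, dpr12 and dpr17, which is 12.9% of members and 12.9% of all tested genes with a coding sequence. Of the called members, neither held this match in its 3′ UTR or coding sequence. The match to bases 3 to 9 occurred in the coding sequence of dpr5 and dpr12, neither of them called. This is 6.45% of members, against 10.9% of all tested genes with a coding sequence. Of the 6 members with the match to bases 5 to 11, dpr11 was called, and the other 5 had log2 fold changes of −0.01 to 0.07. Of those with the 5p match, dpr11 was the only one called, and DIP-eta, dpr4 and dpr10 had log2 fold changes of −0.05, −0.05 and 0.07. For scale, the median log2 fold change of all tested genes with the 3p seed match in the 3′ UTR was 0.02, and 6.27% of them (20 genes) were called higher, beside 3.97% of all tested genes. With the 3′ UTR match to bases 3 to 9 the share was 4.94% (median −0.01), with that to bases 5 to 11 it was 4.32%, with that to the 5p seed 4.55%, and with the 3p seed match in the coding sequence 3.43%.

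The small positive median of the members moved with the control library that stood apart. The lowest of the 6 libraries was wDah replicate 3 for 17 of 30 members (56.7%), against 19.4% of all tested genes, and it was the lowest wDah library for 22 of 30 (73.3%), against 35.6%. Members in this library deviated by a median of −0.10 in log2 from their mean over the 6 libraries, while their medians in the other libraries lay between −0.02 and 0.05 and that of all tested genes in the same library was 0.0040. Low levels in this library were not particular to the members, as is given below for other neuronal surface proteins. The coefficient of variation between replicates had a median over members of 4.01% in miR-210Δ and 6.52% in wDah heads. Without this library, 14 tested members were above 0 and 16 below, with a median log2 fold change of −0.01 and a range of −0.18 to 0.25. With it, 20 were above 0 (66.7%), against 50.4% of all tested genes. The low end of the range without it was DIP-delta, and DIP-eta (−0.14) and dpr4 (−0.12) also lay lower than with it (both −0.05), with none of these called.

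**Figure D4:**
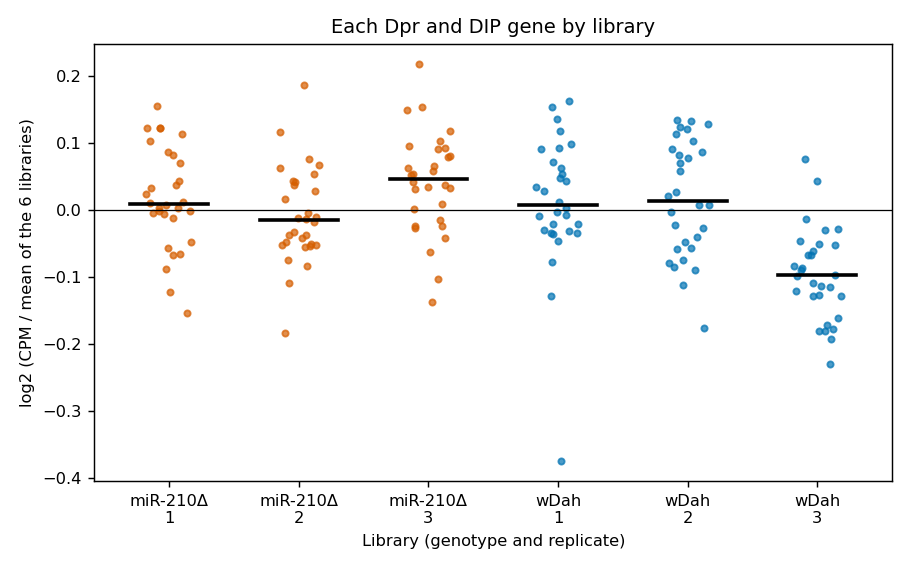
Log2 deviation of each tested Dpr and DIP gene from its mean over the 6 libraries, with 1 point per gene, the miR-210Δ libraries left of the wDah libraries, and the median marked. The median in wDah replicate 3 is −0.10, and those of the other libraries lie between −0.02 and 0.05.

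Muscle markers moved with this library too. Summed over the 17 on the list, of which 15 were tested and none was called, they had 31883 to 34161 CPM in miR-210Δ libraries, 30232 and 32720 CPM in wDah replicates 1 and 2, and 44052 CPM in wDah replicate 3. Summed neuron markers were at 6774 to 7279 CPM in miR-210Δ, 7305 and 7331 CPM in wDah replicates 1 and 2, and 6779 CPM in replicate 3. Glia markers were at 4538 to 4572 CPM in miR-210Δ and 4573 to 4736 CPM in wDah. Other neuronal surface proteins, taken up next, were also lowest in wDah replicate 3 when summed. Beat and Side receptors were at 1224.9 CPM there and 1291.0 to 1329.7 CPM in the other libraries. Leucine-rich repeat, teneurin and cadherin receptors were at 3339.4 and 3441.4 to 3578.8 CPM, and other neuronal immunoglobulin proteins at 3866.0 and 3927.5 to 4056.1 CPM. For the members the sums were 1249 and 1338 to 1384 CPM. The part of tissue shares in the levels of the members was not tested.

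Other surface proteins that guide neurons to their partners were read beside the same 10.1% of all tested genes. Of the Beat and Side receptors, a second network of immunoglobulin proteins that bind each other, none of the 22 tested passed (median log2 fold change 0.04), and the nearest was side-IV (0.17, adjusted p 0.0547 by edgeR). Of 21 leucine-rich repeat, teneurin and cadherin receptors none passed (median −0.0025), nor did any of the 10 tested regulators of lamina and medulla neurons, the first relays of the visual system (median 0.03). The 28 other neuronal immunoglobulin proteins had a median of 0.02, with 3 higher and 3 lower, or 21.4% called.

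The higher genes were babos (222 ± 2.28 CPM in miR-210Δ and 180 ± 2.53 CPM in wDah, log2 fold change 0.30, adjusted p 2.07e-04 by edgeR), wrapper, which is made by midline glia (0.48, adjusted p 0.00218), and ed, the cell adhesion gene echinoid (0.17). The lower genes were rst (roughest, an adhesion protein of the eye and optic lobe, −0.34), fipi (−0.20) and sdk (sidekick, which acts in lamina and medulla wiring, −0.15). Since wrapper is also a glia marker, it stands in that list as well, where 1 of 8 was higher and the glutamate transporter gene Eaat1 was lower (−0.22). Of the fat body markers 1 of 5 was higher, Lsp1gamma, a larval serum protein (0.41). Of the haemocyte markers 1 of 6 was higher, NimC1 (0.18), and 3 were lower, the haemolectin gene Hml (−0.31) and the basement membrane collagen genes vkg (−0.22) and Col4a1 (−0.18).

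**Figure D5:**
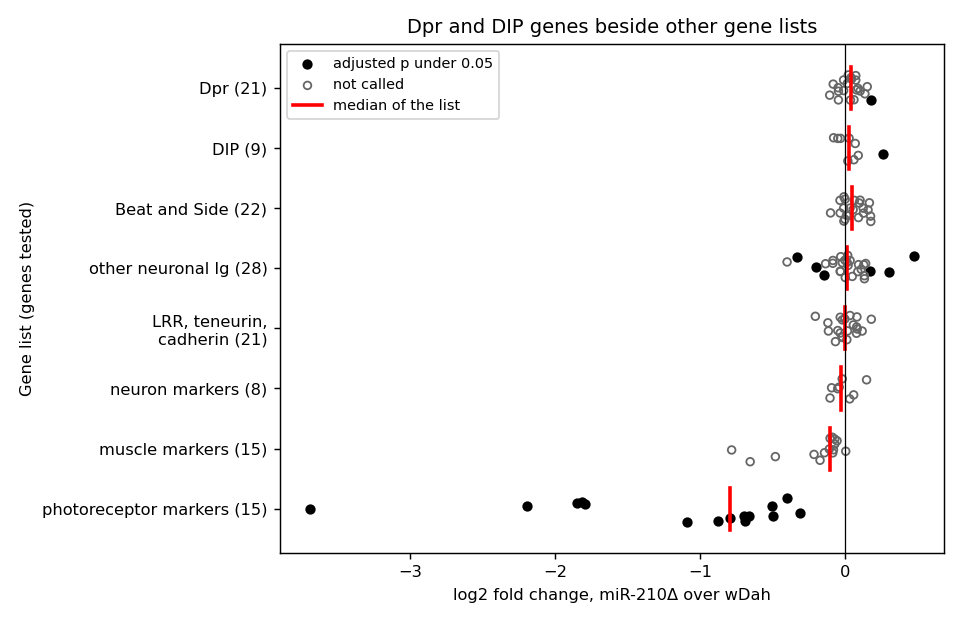
Log2 fold change, miR-210Δ over wDah, of each tested gene, with 1 point per gene, filled where the adjusted p is under 0.05, and a vertical line at each list's median. The lists shown are Dpr, DIP, Beat and Side, other neuronal immunoglobulin, leucine-rich repeat, teneurin and cadherin, neuron, muscle and photoreceptor. The glia, fat body, haemocyte, and lamina and medulla lists are not drawn. The Dpr and DIP genes lie between −0.11 and 0.26, while all 15 photoreceptor markers are called lower, down to −3.69 for Rh2.

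The members share features of their genes that their names did not select. Their median span on the genome was 32.3 kb (3.74 to 379 kb), beside 2.98 kb for all tested genes with annotation, and each of the 31 was above the latter. Their annotated exons covered a median of 3160 nt, beside 2152 nt, and had a GC content of 44.0%, beside 49.0%. Some lie next to each other, as do dpr6 and dpr10 (8.09 kb apart), DIP-eta and DIP-theta (8.35 kb), dpr15 and dpr17 (27.4 kb), and dpr4 and dpr5 (27.5 kb), and none of these 8 genes was called. On the X chromosome, which carries the deletion, lie dpr8, dpr14, dpr18 and DIP-beta, 2058 to 10220 kb from the miR-210 hairpin. None of these 4 was called, while 10.8% of the 1500 tested genes of the X chromosome were. For 5 members the exons overlap those of another gene, by 2.67% to 15.7% of their exon length. For dpr4, dpr16, DIP-gamma and DIP-zeta that gene lies on the opposite strand. Since the strand setting of the counting is not known, their values may include reads of the other gene. For DIP-theta the other gene lies on the same strand, so that its values may include such reads under either setting.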

How the data were processed

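Poly(A) RNA of heads from miR-210Δ and wDah flies was sequenced from 1 end after a stranded library preparation, 3 libraries each. Per the submitters' notes and the methods, the authors used Trim Galore 0.3.7 for trimming, TopHat2 for alignment to dm6 and SAMtools to remove reads with several positions, and they deposited an unnormalized count for every gene. How reads were counted, with which annotation and whether by strand, is not given in the sources used here. The authors' deposited fold changes and p-values were not used, apart from the symbols beside the identifiers. The members and all lists were chosen with earlier results of these data known.

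Differences were fitted to the counts with edgeR 4.0.16 in R 4.3.3 (filterByExpr, TMM, quasi-likelihood test, Benjamini-Hochberg over 9470 genes, threshold 0.05). DESeq2 1.42.0, limma-voom 3.58.1, other size factors, count filters and thresholds, a replicate block and each library left out were alternatives. CPM and RPKM were computed here from TMM-scaled libraries and the union of exons of the Ensembl annotation, which held 15186 of 15406 identifiers and all 31 members. Seed matches were searched in the RefSeq genome sequence, spliced by the transcripts of the same Ensembl annotation, and sequences from chromosome arm 2R are not printed. Figures were drawn in Python 3.11.15 with matplotlib 3.10.9. Replicates varied by 5.54% (the square root of edgeR's common dispersion, 0.00307). The procedure was tested on simulated data. Of the simulated log2 changes of 0.25, 29.3% (12 of 41) were recovered, so that most changes of this size were missed there. The share was 62.3% for changes of 0.5 and 93.6% for changes of 1.0, and 0.076% of unchanged genes were called. In the simulation 9214 of 9410 genes were left unchanged, and the changed genes were drawn from all levels of expression. These shares are therefore not those of the members in the data, for which recovery was not simulated.

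The genes named are the called members, the 3 largest rises and falls, the 3 most and least abundant of each family, partners of called members, members with a seed match or removed by the filter, and up to 4 called genes of each other list by adjusted p. The list members Syx1A, futsch, alrm, Pxn, robo2, Fbp2 and fit were not analysed here. Other genes were named after their values were seen.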

Additional observations from a re-analysis of the deposited data

How the results depend on the processing

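Of the members, 2 were called, and the count was 1 with DESeq2, 1 with a filter of at least 1 count over the 6 libraries, 1 with the replicate block, 1 at an adjusted p under 0.01, 0 with a fold of at least 1.5 and 1 to 2 with a library left out. In each case with 1 call dpr11 was lost and DIP-epsilon remained. For dpr11 the adjusted p ranged over 0.0294 to 0.128 in the 13 settings, and it was lost when any single miR-210Δ library was left out (0.101 to 0.128), without wDah replicate 2 (0.0594) or 3 (0.0676), with the lower count filter (0.0523) and with the block (0.0632). Over all genes, 956 were called, 246 with a fold of at least 1.5, 532 at an adjusted p under 0.01 and 594 to 1278 with a library left out, lowest without miR-210Δ replicate 1. The median log2 fold change of members ranged from −0.01 to 0.06 with a library left out. The other lists had 27 calls, and 22 to 35 with a library left out. The count of members with a seed match was 2, and 1 for bases 3 to 9, 6 for bases 5 to 11, 4 in the coding sequence and 4 for miR-210-5p, the searches for bases 5 to 11 and miR-210-5p having been added after seeing the data. No member reversed a call. The correlation of deviations was −0.08, 0.07 and 0.10 for equal replicate numbers and −0.18 to 0.14 for unequal ones. With 3 libraries per genotype this cannot settle whether samples were handled in pairs, which the sources do not state. The replicate block gave 855 calls. DIP-iota had a log2 fold change of −0.84 (adjusted p 0.725) with the lower count filter, too few counts to judge.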
